A study of Sus scrofa with 220 samples.

Results

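DND1, TDRKH, TDRD10, SYCP3 and DPPA5 are 5 genes best known from germ cells that were followed here through pig pre-gastrulation development. They were found by their symbol among the 22840 gene entries of the series and gave 6 entries, because DND1 has both an Ensembl entry (ENSSSCG00000014374) and an entry that the authors added. All 6 entries were among the 14721 that passed the filter on low values (at least 3 cells above TPM 1). The genes were chosen with their epiblast values in view, so their levels in epiblast against hypoblast and against the inner cell mass (ICM) are a description, without a test.

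Germ cells use a set of RNA regulators and chromosome proteins that most body cells keep silent. Tudor domain proteins dock onto PIWI proteins that carry methylated arginines and help to make and use piRNAs, the small RNAs that silence transposons in the germline. Synaptonemal complex proteins align homologous chromosomes in meiosis, and RNA-binding proteins of the DND1 and NANOS type protect primordial germ cells (PGCs) by steering the fate of messenger RNAs. In mammals PGCs arise from the epiblast, the layer that also forms the body of the embryo.

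Full-length RNA profiles of 220 cells, made with Smart-seq2, came from 28 embryos that developed in vivo after artificial insemination of crossbred Large White and Landrace sows, without any treatment. The 7 cell type labels were morula (47 cells, 8 embryos), early blastocyst (EB) ICM (24 cells, 7 embryos) and trophectoderm (TE, 28 cells, 10 embryos), late blastocyst (LB) epiblast (EPI, 25 cells, 4 embryos) and hypoblast (HYPO, 36 cells, 5 embryos), and spherical embryo (Sph) EPI (48 cells, 4 embryos) and HYPO (12 cells, 3 embryos). TE was removed from late blastocysts by immunosurgery and was not collected at the later stages, EPI and HYPO of spherical embryos were separated by hand, and the authors clustered the transcriptomes and read the lineages with known markers. Each cell held 1012604 to 5696373 counts. Levels below are TPM, which is per length, averaged over the cells of each embryo, and n counts embryos.

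All 9 epiblast markers had counts in each EPI group. However, their summed level of 831 to 2473 TPM in LB EPI overlapped with the 619 to 1477 of ICM. It also overlapped, narrowly, with the 274 to 841 of Sph HYPO. The sums include a NODAL entry that the authors added, whose TPM is on another scale, as described below for DND1. The 6 hypoblast markers found in the tables summed to 11.2 to 73.9 TPM in LB EPI and 10.99 to 25.3 in Sph EPI, against 789 to 2967 in LB HYPO and 1180 to 3391 in Sph HYPO. GATA4, a defining hypoblast factor, had no count in either EPI group. The 7 TE markers summed to 2983 to 5744 TPM in LB EPI, 2808 to 9002 in Sph EPI and 223 to 609 in ICM. In Sph HYPO they summed to 17308 to 43067. CDX2 was the only 1 of the 7 without a count in ICM and in each EPI and HYPO group. The paper saw CDX2 in only a few early TE cells, so its absence says little. The paper also names DAB2, 1 of the 7, among hypoblast genes. The part of the TE markers in the results was not tested. Of 8 PGC markers 5 were found in the tables, with summed levels of 202 to 561 TPM in LB EPI, 52.7 to 94.1 in Sph EPI and 319 to 1318 in ICM. Of 25 LB EPI cells TFAP2C passed TPM 1 in 24, KIT in 21, PRDM1 in 8, DDX4 in 7 and NANOS3 in 0. Of 48 Sph EPI cells these 5 markers did so in 31, 33, 6, 9 and 3. Of 36 LB HYPO cells they did so in 21, 33, 2, 0 and 0, and of 24 ICM cells in 24, 21, 0, 1 and 0. PRDM14, which is among the epiblast markers, passed in 13 LB EPI and 34 Sph EPI cells. The only cell of the TE embryo E6-ER went against its label, with a summed level of 7 TE markers of 175 TPM where the other 9 TE embryos had 18159 to 58315, so the ICM against TE differences are also given without it.

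The 5 genes did not share 1 pattern. TDRKH, TDRD10 and DND1 had their highest median levels in EPI, whereas SYCP3 was as high in EB ICM as in LB EPI and lowest in Sph EPI, and DPPA5 was spread over morula, ICM, TE and LB EPI. The group name "germline-associated genes in epiblast" therefore describes TDRKH and TDRD10 at both EPI stages. On its Ensembl entry DND1 stood above every embryo of the other labels only in LB EPI embryos AP and AQ and Sph EPI embryo E. On the added entry LB EPI embryo AN also did so, narrowly, with 53.0 TPM against 50.5 in morula embryo U.

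**Figure D1:**
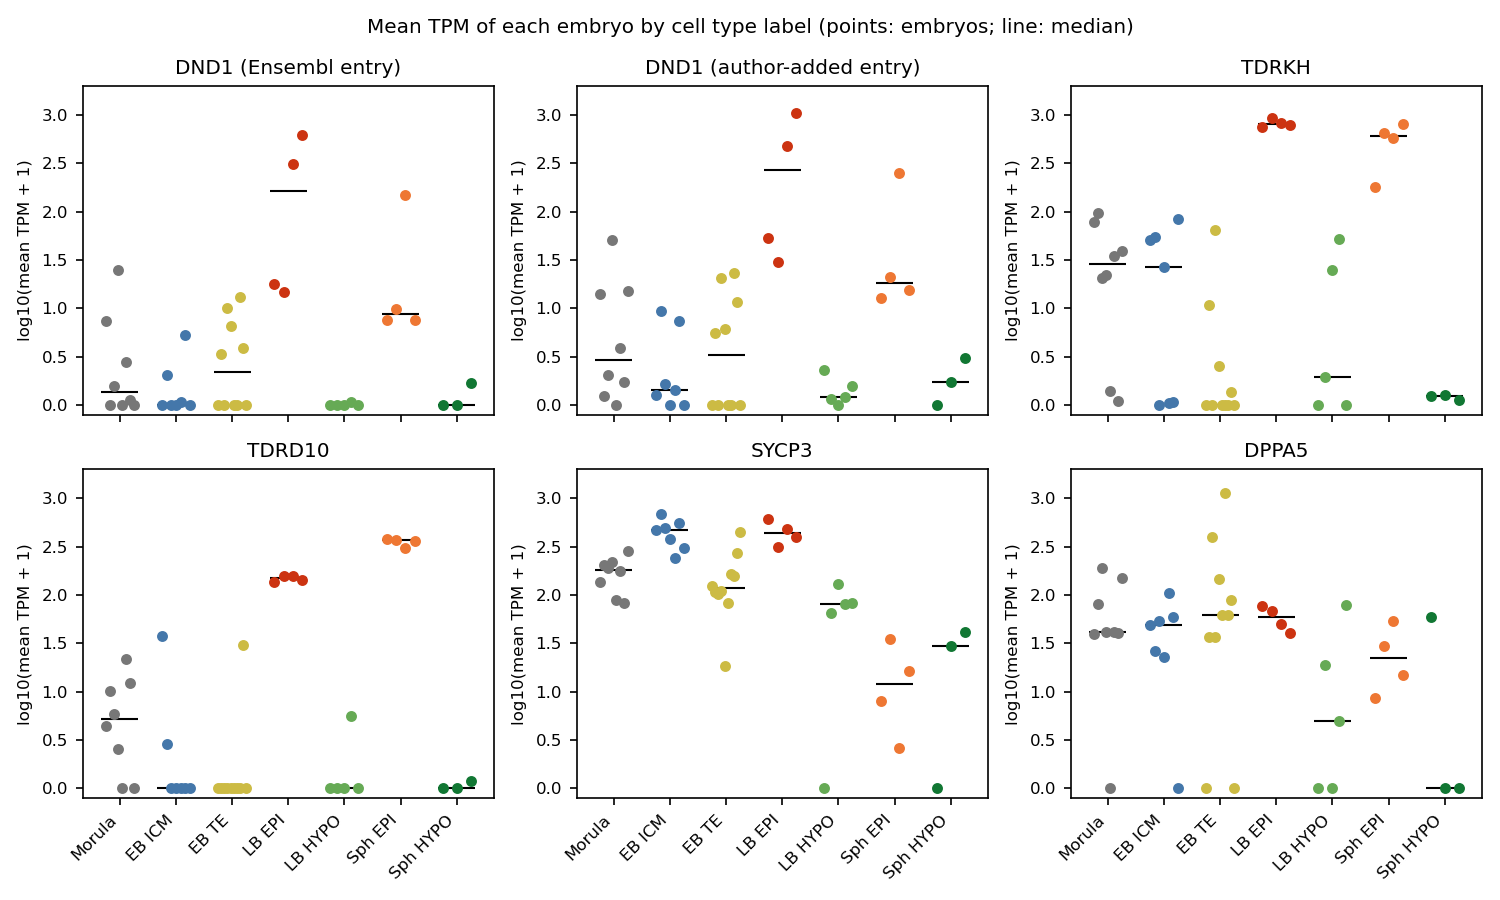
Mean TPM of each gene entry per embryo (log10(mean TPM + 1), y axis) by cell type label (x axis), with 1 point per embryo and a line at the median. TDRKH and TDRD10 sit above every non-epiblast embryo in both EPI labels, DND1 spreads from 6.59 to 624 TPM over EPI embryos, and SYCP3 and DPPA5 are also present in morula, ICM and TE.

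TDRKH (ENSSSCG00000027770) encodes a Tudor and KH domain protein on the mitochondrial surface that brings PIWI proteins to the enzyme that trims piRNA precursors. In LB EPI its level was 749, 923, 821 and 797 TPM in embryos AN, AO, AP and AQ, and in Sph EPI it was 181, 649, 574 and 813 TPM in embryos C, D, E and F. These ranges overlapped, and only embryo C lay well below the others. Morulae ranged from 0.0932 to 96.8 TPM with a median of 27.7, and ICM ranged from 0 to 83.9 with a median of 26.1. TE had a median of 0 TPM and a highest value of 64.0, LB HYPO ranged from 0 to 50.7 with a median of 0.963, and the 3 Sph HYPO embryos had 0.246, 0.262 and 0.136 TPM. In the order of medians LB EPI and Sph EPI came first and overlapped, Sph EPI did not overlap with morula, and each of the remaining neighbours overlapped. At the level of cells, TDRKH passed TPM 1 in 25 of 25 LB EPI cells (exact Clopper-Pearson 95% interval 86.3% to 100%) and 48 of 48 Sph EPI cells (92.6% to 100%). It did so in 9 of 36 LB HYPO cells (12.1% to 42.2%) and in 0 of 12 Sph HYPO cells, a count compatible with a true share as high as 25%. Intervals and limits of this kind cover counting error only.

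TDRD10 (ENSSSCG00000006546), a Tudor domain protein that also has an RNA recognition motif, was the most even of the 5 genes between embryos within each EPI label. Its level was 134, 155, 155 and 142 TPM in LB EPI embryos AN, AO, AP and AQ and 378, 369, 306 and 360 TPM in Sph EPI embryos C, D, E and F. The EPI stages did not overlap, and neither overlapped with any other label. Morulae had 0 to 20.6 TPM with a median of 4.16, and the medians of ICM, TE, LB HYPO and Sph HYPO were 0. Outside EPI and morula, the level came from few embryos, with 36.5 TPM in ICM embryo AA, 1.85 in ICM embryo AC, 29.2 in TE embryo AI, 4.60 in LB HYPO embryo AO and 0.180 in Sph HYPO embryo F. TDRD10 passed TPM 1 in 22 of 25 LB EPI cells (68.8% to 97.5%) and 48 of 48 Sph EPI cells, but in 2 of 36 LB HYPO cells and 0 of 12 Sph HYPO cells.

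DND1 encodes an RNA-binding protein that PGCs need to survive and that recruits the CCR4-NOT deadenylase to its target messenger RNAs. On the Ensembl entry its level was 16.7, 13.8, 309 and 624 TPM in LB EPI embryos AN, AO, AP and AQ. In Sph EPI it was 6.60, 8.93, 148 and 6.59 TPM in embryos C, D, E and F. Embryos AP, AQ and E thus stood far above the other 5 EPI embryos, which shared a narrow range. LB EPI and Sph EPI overlapped, as did every further pair of neighbours in the order of medians, in which TE came next with 1.18 TPM and morula after it with 0.355. Morulae reached 23.8 TPM, ICM 4.27 and TE 11.996, while LB HYPO held 1 DND1 count in all and the Sph HYPO embryos had 0, 0 and 0.681 TPM.

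Library pools were read from the 8 prefixes of the sample titles, and that these prefixes are pools is an inference. The embryo differences in DND1 were also present within both sets of library pools. In the first 4 library pools the LB EPI means of AN, AO, AP and AQ were 3.55, 7.03, 355 and 735 TPM, and in the last 4 pools they were 29.9, 18.4, 263 and 513 TPM. All 10 cells of AQ passed TPM 1, with 234 to 1022 TPM, and all 4 cells of Sph embryo E had 109 to 232 TPM, whereas 4 of 14, 5 of 11 and 8 of 19 cells passed it in C, D and F. The same LB embryos differed little in TDRKH and TDRD10, and their median depth per cell was 1847149, 1966267, 1981676 and 1766908 counts in AN, AO, AP and AQ. Summed epiblast markers were 1584, 831, 1400 and 2473 TPM in the same order. What these embryo differences rest on was not tested.

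**Figure D2:**
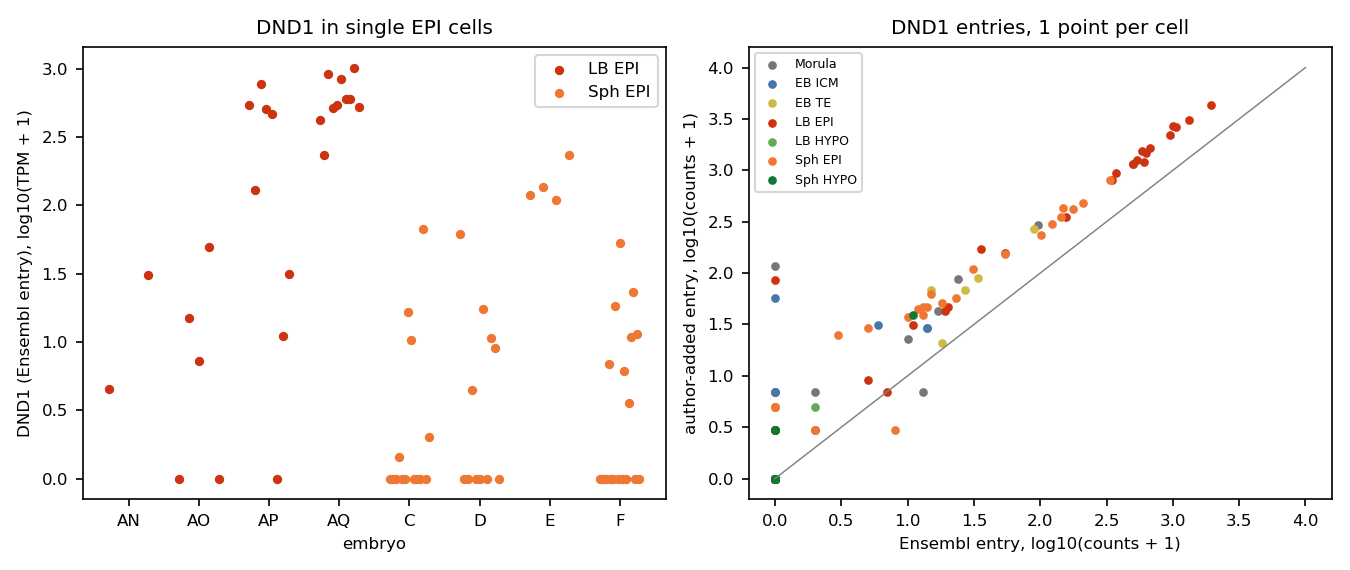
Left, DND1 on the Ensembl entry (log10(TPM + 1), y axis) in each EPI cell, grouped by embryo (x axis), with all cells of AQ at 234 TPM or more and all cells of E at 109 TPM or more. Right, counts per cell on the Ensembl entry (x axis) and the author-added entry (y axis), both as log10(counts + 1) with a line of equality. The median ratio is 2.54 over the 47 cells with at least 10 counts on both.

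The author-added DND1 entry followed the Ensembl entry. It gave 53.0, 29.1, 482 and 1060 TPM in LB EPI embryos AN, AO, AP and AQ and 11.8, 20.04, 248 and 14.5 TPM in Sph EPI embryos C, D, E and F, so the same 3 embryos stood apart. Both entries had counts in 61 cells, only the added entry in 32, only the Ensembl entry in 0 and neither in 127. Over the 47 cells with at least 10 counts on both, the added entry held a median of 2.54 times the counts (interquartile range 2.33 to 3.01), and over all cells Pearson's r of log2(TPM + 1) was 0.97. All 957 nonzero counts on entries that the authors added were even numbers, against 51.9% odd among Ensembl entries, and TPM of the Ensembl entries alone summed to 1000000 in each cell. Levels of the added entry are therefore on another scale than those of the other genes, and the 2 entries, which describe 1 gene, are not independent.

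DPPA5 (ENSSSCG00000004283), a small KH domain RNA-binding protein known from pluripotent cells and early germ cells, was not particular to EPI. Its median was 61.5 TPM in TE, 57.8 in LB EPI, 47.9 in ICM, 40.6 in morula, 21.2 in Sph EPI, 3.98 in LB HYPO and 0 in Sph HYPO, and all neighbours in this order overlapped. LB EPI embryos AN, AO, AP and AQ had 76.2, 67.1, 48.5 and 39.01 TPM, and Sph EPI embryos C, D, E and F had 7.51, 28.5, 52.5 and 13.9. TE ranged from 0 to 1125 TPM, where the highest value was the only cell of embryo AG. The share of cells above TPM 1 was 16 of 25 in LB EPI (42.5% to 82.0%), near the 15 of 24 in ICM (40.6% to 81.2%), and 8 of 36 in LB HYPO (10.1% to 39.2%).

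SYCP3 (ENSSSCG00000000863), the main protein of the lateral element along which meiotic chromosomes are organised, was the most widely expressed of the 5. It passed TPM 1 in all 47 morula, 24 ICM and 25 LB EPI cells and in 30 of 48 Sph EPI cells (47.4% to 76.0%). Levels were 614, 311, 475 and 399 TPM in LB EPI embryos AN, AO, AP and AQ but 7.03, 33.7, 1.63 and 15.2 TPM in Sph EPI embryos C, D, E and F, so the stages did not overlap. ICM ranged from 241 to 679 TPM with a median of 467, morula from 81.5 to 282 with a median of 181, and TE from 17.4 to 443 with a median of 116, where the highest value was embryo E6-ER and the next was 269. LB HYPO had 0, 64.0, 128, 80.3 and 82.3 TPM in embryos AL, AM, AN, AO and AP, and Sph HYPO had 0, 28.9 and 40.5 TPM in C, E and F. ICM and LB EPI overlapped at the top of the order, LB EPI did not overlap with morula, and Sph EPI came last.

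**Figure D3:**
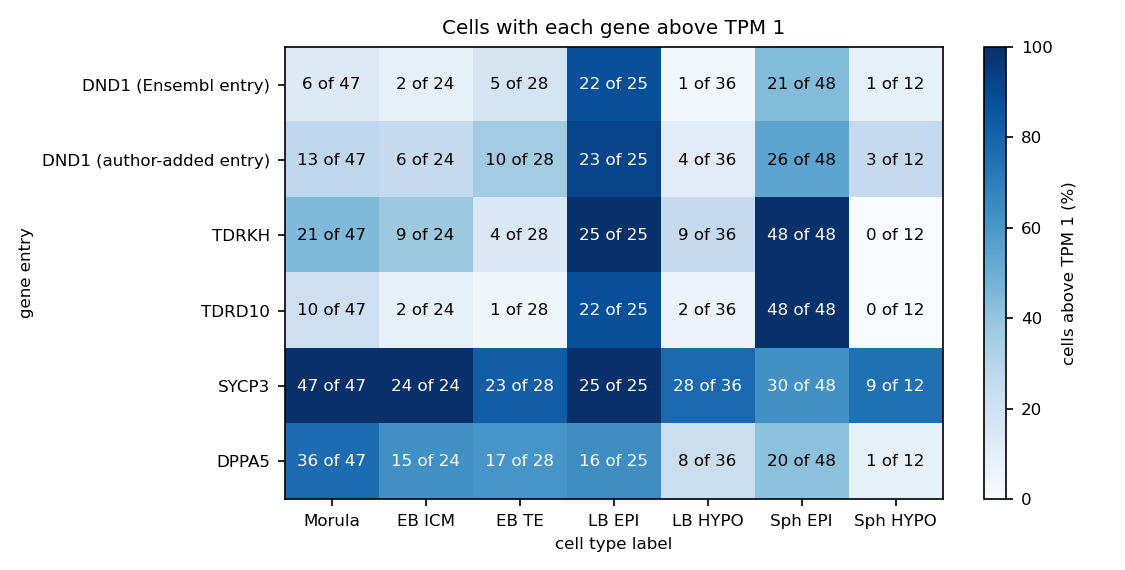
Cells above TPM 1 for each gene entry (rows) and cell type label (columns), as a number of all cells and, by colour, as a percentage. TDRKH and TDRD10 pass in 48 of 48 Sph EPI cells and 0 of 12 Sph HYPO cells, while SYCP3 passes in all morula, ICM and LB EPI cells.

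The number of genes held by a single cell depends on the share of cells with each gene alone. The genes were also chosen with epiblast values in view, so nothing about joint expression is read from these counts. Counting DND1 by its Ensembl entry, 4 or 5 of the genes passed TPM 1 in 23 of 25 LB EPI cells, 21 of 48 Sph EPI cells, 8 of 47 morula cells and 3 of 28 TE cells, and in 0 cells of ICM, LB HYPO and Sph HYPO. Within an EPI stage the levels of different genes hardly rose and fell together. The strongest Pearson correlations of log2(TPM + 1) between 2 genes were 0.31 for TDRKH and DPPA5 over 25 LB EPI cells and 0.38 for TDRKH and SYCP3 over 48 Sph EPI cells, where cells share embryos and depth.

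Counted by embryo ranges, 5 of the 6 entries lay wholly higher in LB EPI than in LB HYPO, all but DPPA5, where 5.39% of all genes tested did. In spherical embryos 4 of the 6 entries lay wholly higher in EPI than in HYPO, all but SYCP3 and DPPA5, where 11.2% of all genes did. From ICM to LB EPI the same 4 entries lay wholly higher in LB EPI, where 4.13% of all genes did. Since the genes were chosen for epiblast, nothing is read from these counts.

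2 comparisons were tested for the members, by edgeR's quasi-likelihood test on 1 sum of counts per embryo and label, with Benjamini-Hochberg adjustment over all 14721 genes. The first asked what changed from morula to ICM. SYCP3 was lower in morula than in ICM (log2 difference -1.36, SE 0.31, adjusted p = 0.0198, 8 against 7 embryos), with mean levels of 171 ± 67.5 TPM (SD) in morula and 445 ± 150 in ICM. It was the only 1 of the 6 entries called, where 2.45% of all genes were. DND1 had a log2 difference of 2.34 (SE 1.84, adjusted p = 0.540 by edgeR) towards morula, TDRKH 0.05 (SE 1.28), TDRD10 0.32 (SE 1.75) and DPPA5 0.93 (SE 1.04), none of which passed. Without ICM embryo AC the SYCP3 call was lost (adjusted p = 0.0539 by edgeR), as it was within the first 4 pools (log2 difference -1.54, adjusted p = 0.105) and the last 4 pools (-1.01, adjusted p = 0.192).

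The second comparison, ICM against TE in the early blastocyst, shares the ICM sums with the first. SYCP3 was higher in ICM by 1.63 on the log2 scale (SE 0.38, adjusted p = 0.0461 by edgeR, 7 against 10 embryos), with 157 ± 120 TPM (SD) in TE, and was again the only entry called, where 0.754% of all genes were. Without the TE embryo E6-ER, which went against its label, the difference was 1.83 (adjusted p = 0.00933 by edgeR). The call was narrow: leaving out any 1 embryo other than ICM AI, TE AE or TE E6-ER ended it (adjusted p 0.0526 to 0.124 by edgeR), as did a replicate block by embryo (1.98, adjusted p = 0.0547) and the first or last 4 pools alone (2.14, adjusted p = 0.209, and 1.44, adjusted p = 0.214). DPPA5 had a log2 difference of -2.26 (SE 1.32, adjusted p = 0.450 by edgeR), DND1 -2.77 (SE 1.87), TDRKH 1.87 (SE 1.76) and TDRD10 0.21 (SE 2.16), none of them called. Without E6-ER these differences were -2.43, -2.90, 1.72 and 0.10 in the same order, again without a call.

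The third comparison set early against late epiblast. Its sums were in view when the members were chosen, so the members' values in it are a description, without a test. SYCP3 had a log2 difference of 4.92 (SE 0.75, 4 against 4 embryos) towards LB EPI, with 449.9 ± 129 TPM (SD) in LB EPI and 14.4 ± 14.04 in Sph EPI. Every LB EPI embryo lay above every Sph EPI embryo, as for 3.84% of all genes, and the difference stayed between 4.51 and 5.68 with any 1 embryo left out. Within the first 4 pools it was 4.98 and within the last 4 pools 4.70.

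TDRD10 went the other way between the EPI stages, with 146 ± 10.5 TPM (SD) in LB EPI and 353 ± 32.3 in Sph EPI and no overlap, where 4.24% of all genes lay wholly higher in Sph EPI. Its log2 difference was -1.29 (SE 0.30) by edgeR, -1.22 by DESeq2 and -1.87 by limma on log2(TPM + 1). DND1 had a log2 difference of 2.52 (SE 1.36) on the Ensembl entry and 2.48 (SE 1.21) on the added entry. It moved from 1.52 without LB EPI embryo AQ to 4.71 without Sph EPI embryo E on the Ensembl entry, and from 1.44 to 4.43 without the same embryos on the added entry. TDRKH had 0.47 (SE 0.39) and DPPA5 0.78 (SE 1.02), and the ranges of DND1, TDRKH and DPPA5 overlapped between the stages.

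**Figure D4:**
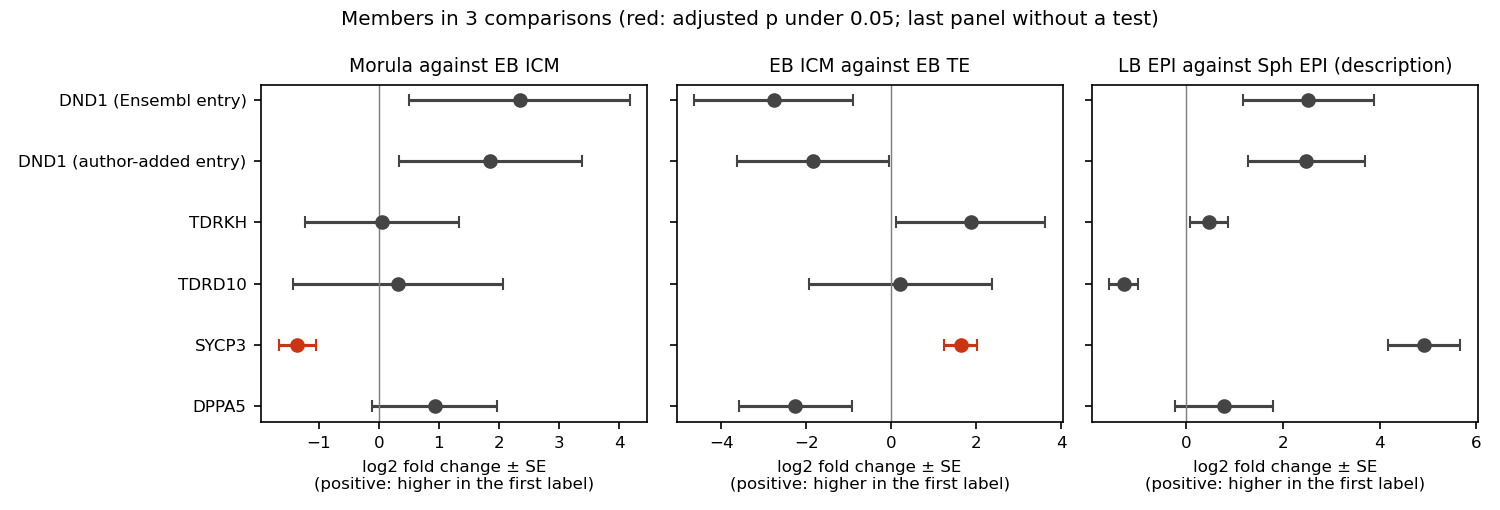
Log2 fold change with its standard error (x axis, positive where the first label is higher) of each gene entry (y axis) in 3 comparisons by edgeR, with called entries in red in the first 2 and no test in the last. SYCP3 is the only entry called, at -1.36 and 1.63, and in the last panel it lies at 4.92 and TDRD10 at -1.29.

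The wider piRNA and Tudor pathway was described by a list of 29 genes without the members, of which 21 were found in the tables and 20 tested. Like the members, this list and those below were chosen with earlier results of these data known. Their calls and shares are therefore read as a description. Of the 19 with a median above 0 TPM in some label, 11 had their highest median in LB EPI (57.9%), against 20.98% of the 13514 genes tested that had such a median. Most of these levels were low: PIWIL2, DDX4 and TDRD1, named after their values were seen, had medians of 13.5, 18.7 and 14.4 TPM in LB EPI. Between LB EPI and LB HYPO, 1 of the 20 was called higher in LB EPI and 0 lower, where 1.92% of all genes were called. The gene called was RNF17, a Tudor domain protein of germ cell granules, with a median of 22.4 TPM in LB EPI and 0 in LB HYPO (log2 difference 7.18, adjusted p = 0.0426 by edgeR), a call lost with a replicate block by embryo (adjusted p = 0.528). In this comparison 5 of the 20 reached an unadjusted p under 0.05 and DESeq2 called 2, where 20% and 9.42% of all genes did.

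Between Sph EPI and Sph HYPO 0 of the 20 piRNA genes were called by edgeR, where 1.13% of all genes were. At an unadjusted p under 0.05 there were 4, where 15.2% of all genes were, and DESeq2 called 3, where it called 9.87% of all genes. Of the 20, 12 had a median of 0 TPM in Sph HYPO, so no size is given for the list. From ICM to LB EPI, where 2.91% of all genes were called, 1 gene rose and 1 fell. MAEL, which takes part in piRNA silencing, had no count in ICM and a median of 37.7 TPM in LB EPI. The rise had an adjusted p = 0.0342 by edgeR and was called in 5 of 13 alternatives. It was 212-fold against a floor of 3 counts over the ICM group. That floor covers counting error of reads only, and MAEL passed TPM 1 in 9 of 25 LB EPI cells. HENMT1, which methylates the ends of piRNAs, fell from a median of 5913 to 1780 TPM, higher in ICM by 1.73 on the log2 scale (adjusted p = 0.0102 by edgeR, called in 13 of 13 alternatives). Its medians were 9903 TPM in morula and 82.0 in Sph EPI, with adjusted p = 0.206 by edgeR between the EPI stages. GTSF1, a PIWI partner, had medians of 107 TPM in ICM, 198 in LB EPI, 56.3 in LB HYPO and 103 in Sph EPI and was not called in these comparisons by edgeR. From morula to ICM, ASZ1, also a piRNA protein of germ cells and named after its values were seen, was the list's only called gene and was higher in ICM (log2 difference -2.01 for morula minus ICM, adjusted p = 0.00428 by edgeR). In that comparison 5 of the 20 reached an unadjusted p under 0.05 and DESeq2 called 3, where 23.4% and 8.26% of all genes did. The piRNA list had 0 calls by edgeR in ICM against TE and in LB EPI against Sph EPI, where 0.754% and 0.156% of all genes were called. It had 6 and 4 genes at an unadjusted p under 0.05, where 18.9% and 13.6% of all genes were, and 1 and 2 called by DESeq2, where 3.1% and 5.62% were.

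The synaptonemal complex and meiotic axis list held 29 genes without SYCP3, of which 19 were found and 17 tested. Of the 16 with a median above 0 TPM in some label, 6 had their highest median in LB EPI (37.5%). Of all genes with such a median 20.98% did. SYCP1, which encodes the transverse filament that bridges paired chromosomes and was named after its values were seen, was called in the same comparisons of early stages as SYCP3. Its medians were 0 TPM in morula, 9.73 in ICM and 0 in TE, with no count in TE. For morula minus ICM the log2 difference was -8.41 (adjusted p = 0.00732 by edgeR). Against a floor of 3 counts over the TE group, SYCP1 was 559-fold higher in ICM (adjusted p = 0.0249 for ICM against TE by edgeR). That floor covers counting error of reads only, and SYCP1 passed TPM 1 in 10 of 24 ICM cells. These calls held in 21 of 24 and 20 of 26 alternatives. No other gene of this list was called in morula against ICM or ICM against TE by edgeR. Between LB EPI and Sph EPI the list had 0 calls by edgeR, 4 of 17 genes at an unadjusted p under 0.05 and 3 calls by DESeq2, against the 13.6% and 5.62% of all genes. HORMAD1, a meiotic chromosome axis protein, had medians of 56.4 TPM in LB EPI and 1.48 in Sph EPI (log2 difference 5.20, adjusted p = 0.193 by edgeR). The most abundant gene of the list in EPI was MSH4, a meiotic mismatch repair family protein, with medians of 188 and 185 TPM and a log2 difference of 0.03. In LB EPI against LB HYPO, Sph EPI against Sph HYPO and ICM against LB EPI the list had 0 calls by edgeR, with 1, 2 and 3 of 17 genes at an unadjusted p under 0.05 and 0, 1 and 1 calls by DESeq2. In ICM against LB EPI 22.6% of all genes reached such a p and DESeq2 called 9.43%, and the list's counts in these comparisons were no higher in share than those of all genes.

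Germ cell specification and RNA-binding genes were described by a list of 20, of which 13 were found and 11 tested. Of the 10 with a median above 0 TPM in some label, 3 had their highest median in LB EPI (30%). Of all genes with such a median 20.98% did. TFAP2C, a transcription factor of trophectoderm and PGCs, was higher in LB EPI than in LB HYPO by 3.90 on the log2 scale (adjusted p = 0.0359 by edgeR), with medians of 235 and 7.91 TPM. Its medians in morula, ICM and TE were 626, 494 and 482 TPM, so its level was not particular to EPI, and with a replicate block by embryo the call was lost (adjusted p = 0.0793). PRDM14, a repressor known from PGCs and from mouse naive pluripotent cells, was higher in Sph EPI than in Sph HYPO, with medians of 43.4 and 0 TPM. The call had an adjusted p = 0.0333 by edgeR and was lost with the replicate block at 0.234. PRDM14 is also 1 of the 9 epiblast markers, so nothing is read from this call. Its medians were 0.485 TPM in morula, 0 in ICM and 59.8 in LB EPI. PRDM1, a repressor that directs PGC fate, had no count in ICM and a median of 8.02 TPM in LB EPI. The rise had an adjusted p = 0.0158 by edgeR, and its call was lost without LB EPI embryo AP at 0.0549. It was 497-fold against a floor of 3 counts over the ICM group. That floor covers counting error of reads only, and PRDM1 passed TPM 1 in 8 of 25 LB EPI cells. Its median was higher in Sph HYPO, at 30.1 TPM, than in Sph EPI, at 1.20, which did not pass by edgeR (adjusted p = 0.198). DAZAP1, a partner of the germ cell protein DAZ, had medians of 85.8 TPM in LB EPI and 36.5 in Sph EPI. Each of the remaining genes of the list was uncalled in the EPI comparisons by edgeR. In LB EPI against LB HYPO, Sph EPI against Sph HYPO and ICM against LB EPI, edgeR called 1 of the 11 each time. Of all genes 1.92%, 1.13% and 2.91% were called. At an unadjusted p under 0.05 there were 5, 3 and 3, where 20%, 15.2% and 22.6% of all genes were. DESeq2 called 4, 4 and 1, where it called 9.42%, 9.87% and 9.43%. Morula against ICM, ICM against TE and LB EPI against Sph EPI gave 0 calls by edgeR. They had 2, 2 and 3 genes at such a p, where 23.4%, 18.9% and 13.6% of all genes were.

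Repressors that keep germline genes silent in other cells, among them DNA methyltransferases and the PCGF6 and E2F6 complexes, were described by a list of 24, of which 19 were found and tested. Of the 18 with a median above 0 TPM in some label, 10 had their highest median in LB EPI (55.6%), against the 20.98% of all genes with such a median. DNMT3B, a de novo DNA methyltransferase, had medians of 13.1 TPM in ICM, 624 in LB EPI, 460.4 in Sph EPI and 58.7 in LB HYPO. It was lower in ICM than in LB EPI (log2 difference -4.90, adjusted p = 0.000306 by edgeR) and higher in LB EPI than in LB HYPO by 3.25 (adjusted p = 0.00895, or 0.0588 with the replicate block). DNMT3B is also 1 of the 9 epiblast markers. HDAC2, a histone deacetylase, was higher in LB EPI than in LB HYPO by 1.26 (adjusted p = 0.0320 by edgeR, or 0.228 with the block), and higher in ICM than in morula (log2 difference -0.97, adjusted p = 0.0103). CBX1, a heterochromatin protein, was higher in LB EPI than in ICM (log2 difference -2.21 for ICM minus LB EPI, adjusted p = 0.0265) and than in Sph EPI by 2.58 (adjusted p = 0.0381, called in 9 of 18 alternatives). Of the 19, 2 were called higher in LB EPI than in LB HYPO, 2 higher than in ICM, and 0 lower. Of all genes 1.92% and 2.91% were called in either direction. At an unadjusted p under 0.05 there were 6 and 8, where 20% and 22.6% of all genes were. DESeq2 called 5 and 5, where it called 9.42% and 9.43%. Sph EPI against Sph HYPO had 0 calls by edgeR, where 1.13% of all genes were called. LB EPI against Sph EPI and morula against ICM had 1 call each, where 0.156% and 2.45% of all genes were called.

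**Figure D5:**
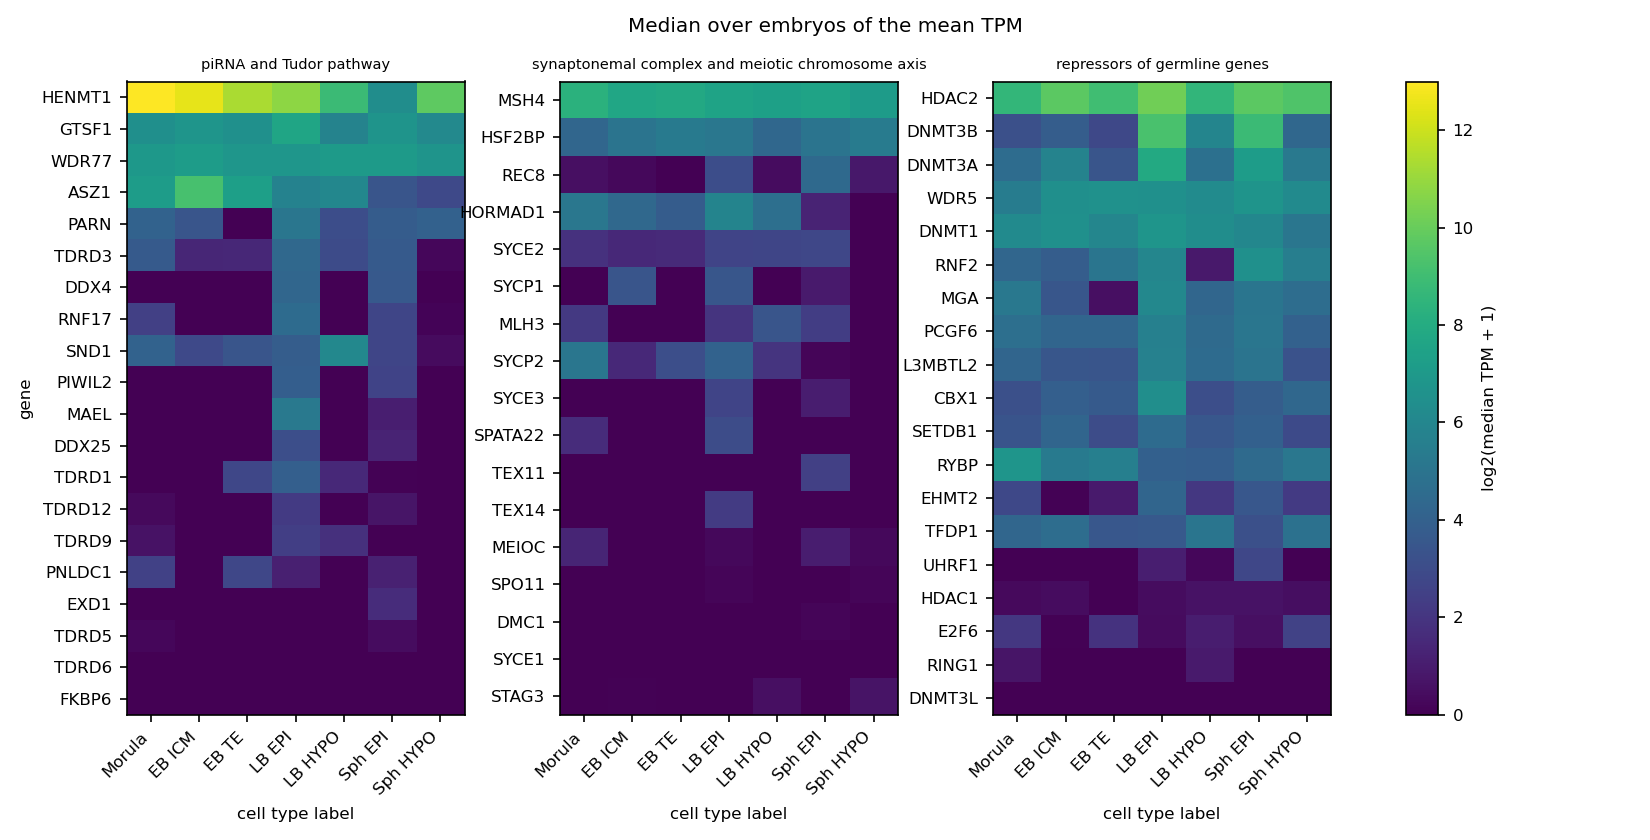
Median over embryos of the mean TPM, as log2(median TPM + 1) by colour, for the tested genes (rows) of 3 lists in the 7 cell type labels (columns). In the piRNA and Tudor list 11 genes have their highest median in LB EPI, among them MAEL at 37.7 TPM, while HENMT1 is highest in morula at 9903 TPM, and DNMT3B reaches 624 TPM in LB EPI.

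The genes with the most similar pattern were sought over all 41 embryo sums by Pearson's r of log2(CPM + 1). The search covered 7072 entries that exceeded TPM 1 in 20 cells or more and carry a gene symbol other than a LOC placeholder. Entries without a symbol were not compared. The sums share depth, embryos and labels, so these values are a description. For DND1 they were its own added entry (0.95), INA (0.83) and MAL2 (0.83), and for the added entry the Ensembl entry (0.95), MAL2 (0.80) and RNF152 (0.80). For TDRKH they were FGF19 (0.78), RRAGD (0.76) and TDRD10 (0.76), and for TDRD10 they were RRAGD (0.89), CHRNA3 (0.88) and USP44 (0.88). SYCP3 was nearest to BRDT (0.77), TIGAR (0.74) and GOT1 (0.74), and DPPA5 to COX7A2 (0.67), SLCO4C1 (0.65) and ITGA6 (0.62). RRAGD was thus near both TDRKH and TDRD10, and the 3 genes nearest to SYCP3 and to DPPA5 were not near any other member.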

How the data were processed

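The authors trimmed reads with scythe and sickle, aligned them to pig genome 10.2 with HISAT2 2.1.0, kept uniquely mapped reads and counted them on Ensembl build 87 genes with htseq-count, and they deposited raw counts and TPM per gene and cell. The authors had discarded shallow cells and cells rich in mitochondrial reads. The cells were described by GEO's cell type labels. Embryo letters were read from the cell identifiers, which is an inference, and 1 morula cell without letters was left out of the sums. Library pools were likewise inferred, from the prefixes of the sample titles. The cells of an embryo with the same label were added up to 1 sum of counts, giving 41 sums, which were tested with edgeR 4.0.16 (TMM, glmQLFit, glmQLFTest, R 4.3.3) over 14721 genes above TPM 1 in 3 or more cells. DESeq2 1.42.0 and limma 3.58.1 (pseudocount 1) were alternatives. Positive log2 differences mean that the label named first is higher. Embryos are separate animals, but the same embryo can enter 2 labels. Deviations of such pairs had median correlations of 0.042 over 7 EB, 0.035 over 3 LB and 0.067 over 3 Sph embryos, and the pairing rests on the shared letters. The members and gene lists were chosen with earlier results of these data known. A planned test of the members between the EPI stages is therefore given as a description, and the calls of list genes are read as one. Named list genes were those called in LB EPI against LB HYPO, Sph EPI against Sph HYPO or ICM against LB EPI and the 2 of each list highest in EPI. The scripts were tested on simulated data. The 220 cells held a median of 2006854 counts.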

Additional observations from a re-analysis of the deposited data

Results flagged for a closer look

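Of 36 combinations of a gene entry and a label with 4 to 10 embryos, 12 held an embryo whose mean TPM lay apart from the others by a Dixon test at 95%, where chance alone gives about 1 in 20. Many of these labels are mostly at 0, so that a single embryo with counts stands apart. DND1 on the Ensembl entry was set apart in morula embryo U (23.8 TPM, next highest 6.39), ICM embryo AG (4.27, next 1.03), LB HYPO embryo AO (0.0801, next 0) and Sph EPI embryo E (148, next 8.93). On the added DND1 entry morula embryo U (50.5 TPM, next 14.1) and Sph EPI embryo E (248, next 20.04) were set apart again. TDRKH was set apart in TE embryo AD (64.0 TPM, next 9.99). TDRD10 was set apart in ICM embryo AA (36.5 TPM, next 1.85), TE embryo AI (29.2, next 0) and LB HYPO embryo AO (4.60, next 0). DPPA5 was set apart in TE embryo AG (1125 TPM, 1 cell, next 392) and LB HYPO embryo AP (78.6, next 17.8).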

How the results depend on the processing

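The SYCP3 differences kept their direction in every alternative tried, and the causes of lost calls were not tested. In morula against EB ICM the SYCP3 log2 difference was -1.29 with all 7 labels in one model, -1.54 in the first 4 pools and -1.01 in the last 4, each uncalled, and it ranged from -1.46 to -1.18 with 1 embryo left out. In EB ICM against EB TE it lost its call without TMM (1.55), with filterByExpr (1.62), by limma (2.58), with sums of at least 2 cells (1.87), with all 7 labels in one model (1.63), in the first or last 4 pools (2.14 and 1.44) and with a replicate block by embryo (1.98), and it ranged from 1.45 to 1.83 with 1 embryo left out. In LB EPI against Sph EPI, where members are described without a test, it was 4.70 in the last 4 pools and ranged from 4.51 to 5.68 with 1 embryo left out, and TDRD10 was -1.22 by DESeq2 and -1.87 by limma. Some uncalled or untested differences changed sign. For TDRKH in morula against EB ICM these were DESeq2 (-0.01), no TMM (-0.02), the last 4 pools (-1.31), the morula cell without letters as its own embryo (-0.12) and 5 of 15 embryos left out (-0.20 to 0.41). For TDRD10 they were sums of at least 2 cells in morula against EB ICM (-0.06) and, in EB ICM against EB TE, limma (-0.05), the last 4 pools (-7.34) and 4 of 17 embryos left out (-4.25 to 7.67). The added DND1 entry in EB ICM against EB TE turned to 0.84 with the replicate block, and DPPA5 between the EPI stages to -0.35 in the last 4 pools. The block changed no other member's sign or call.

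Counts of genes called moved most. DESeq2 called 1216 genes in morula against EB ICM (361 by edgeR), 457 in EB ICM against EB TE (111), 828 in LB EPI against Sph EPI (23), 1387 in LB EPI against LB HYPO (283), 1453 in Sph EPI against Sph HYPO (167) and 1388 in EB ICM against LB EPI (428). With the replicate block the LB and Sph counts of EPI against HYPO fell to 20 and 82. By limma the counts in morula against EB ICM, EB ICM against EB TE and LB EPI against Sph EPI were 666, 226 and 97, in the first 4 pools 38, 39 and 15, and in the last 4 pools 132, 9 and 7. EB ICM against EB TE gave 37 with filterByExpr and 865 with all 7 labels, and LB EPI against Sph EPI gave 45 without TMM and 51 without a filter. With 1 embryo left out, the counts ranged from 58 to 184 in EB ICM against EB TE (58 without ICM AG, and also low without ICM AA, AC or AF or TE AA, AC, AD or AG, and 184 without TE E6-ER), 11 to 41 in LB EPI against Sph EPI (11 without AP or AQ, low also without C or D, and 41 without AN), 138 to 294 in LB EPI against LB HYPO (138 without EPI AQ, low also without EPI AP or HYPO AM), 78 to 583 in Sph EPI against Sph HYPO (78 without EPI E, low also without EPI C or F, and 583 without HYPO F) and 239 to 428 in EB ICM against LB EPI (239 without AP, low also without AQ). Over all gene lists, the genes called in LB EPI against LB HYPO, Sph EPI against Sph HYPO and EB ICM against LB EPI were 4, 1 and 5 by edgeR, 12, 10 and 14 by DESeq2, 0 and 0 with the replicate block in the first 2, and 1 to 4, 0 to 2 and 2 to 6 with 1 embryo left out. The count was 0 in Sph EPI against Sph HYPO without EPI C, D or F or HYPO E, at most 2 in LB EPI against LB HYPO without EPI AN, AO, AP or AQ or HYPO AL, AM or AN, and at most 3 in EB ICM against LB EPI without ICM AA or AF or EPI AP or AQ. Of the 18 nearest genes, 3 were found again by Spearman and 6 over cells, so the nearest genes depend on the measure. The number of member entries highest in an EPI label stayed at 4 by level, with medians over cells or CPM, and at 4 by share of cells, with any count or TPM over 5. filterByExpr removed the Ensembl DND1 entry and TDRD10 in both early comparisons, and TDRKH in EB ICM against EB TE, which then gave no value. Embryo numbers of 3 to 10 a label limit the tests, and depth limits calls for genes near 0.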

Other observations

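The CCR4-NOT deadenylase, to which DND1 delivers messenger RNAs, was broadly present. Of 15 list genes 10 were found and tested, and 0 were called by edgeR in any of the 6 comparisons, with at most 2 at an unadjusted p under 0.05 and at most 1 called by DESeq2 in a comparison, where 13.6% to 23.4% and 3.1% to 9.87% of all genes were. Of these 10, 3 had their highest median in LB EPI (30%). Of all genes with a median above 0 TPM in some label 20.98% did. CNOT7, a catalytic subunit, had medians of 319 TPM in LB EPI, 487 in Sph EPI and 567 in LB HYPO, and CNOT2, a scaffold subunit, had 55.3, 158 and 55.1. Of 10 relatives of DPPA5 and subunits of the subcortical maternal complex only OOEP and PADI6 were found, with medians of 0 TPM in each of the 7 labels. In morula against ICM the 2 genes reached an unadjusted p under 0.05 by edgeR, where 23.4% of all genes did. Neither was called there by edgeR or DESeq2.

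The morula cell without embryo letters held 2488103 counts and showed SYCP3 at 339 TPM and DPPA5 at 36.3 TPM, with DND1 on both entries, TDRKH and TDRD10 at 0 counts.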
